A study of Mus musculus with 18 samples.

Results

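The toll-like receptor genes Tlr1, Tlr2, Tlr3, Tlr4, Tlr5, Tlr6, Tlr7, Tlr8, Tlr9 and Tlr13 were followed in the lacrimal gland (LG), the gland that secretes the aqueous part of tears. They were taken by gene symbol, with no threshold on a measured value, and they are 10 of the 54232 genes in the deposited count table. All 10 passed the filter on low counts in every comparison.

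Toll-like receptors are membrane proteins of innate immunity that bind molecules of microbes, and in some settings nucleic acids released by the host's own cells. Tlr1, Tlr2, Tlr4, Tlr5 and Tlr6 act at the cell surface on lipopeptides, lipopolysaccharide and flagellin. Tlr3, Tlr7, Tlr8, Tlr9 and Tlr13 act inside endosomes on RNA or DNA. Bound receptors recruit the adaptors MyD88 or TRIF, which lead through kinases to the transcription factors NF-kB and IRF and to the release of cytokines, chemokines and interferons. Macrophages and dendritic cells carry most of these receptors, B cells are known for Tlr7 and Tlr9, and epithelial cells can carry Tlr3 and Tlr5.

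Bulk RNA sequencing covered 18 male mice in 6 groups of 3, with no treatment named. BALB/cJ mice, the healthy control (BALB/c), and NOD.B10Sn-H2b/J mice (NOD.H-2b), a model of primary Sjögren's syndrome in which leukocytes gather in the LG, were taken at ages of 2, 4 or 6 months (2M, 4M and 6M). Each sample was 1 LG of 1 mouse, so the replicates were separate animals. The strains differ in far more than the disease, including the H2 region, and differences of strain and of disease cannot be told apart in this design.

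The libraries held 49480781 to 103936830 counts, and no pair of replicates was a repeat of the same library. The tissue label was borne out by the 7 acinar and ductal secretory markers, none of them at 0, whose summed level was 13860 to 72668 CPM (counts per megaread, with library sizes scaled by TMM, the trimmed mean of M values). Leukocyte markers differed between the strains. The 10 macrophage markers summed to 58.7 to 151 CPM in the BALB/c mice and to 215 to 462 CPM in the NOD.H-2b mice. The 8 B cell markers summed to 0.123 to 2.36 CPM in BALB/c LG, to 1.54 to 32.3 CPM in NOD.H-2b LG at 2M and to 162 to 489 CPM there at 4M and 6M. Among the BALB/c mice of 4M, replicate 3 had the highest macrophage sum, 151 CPM against 93.2 and 101 CPM, and the highest pan-leukocyte sum, 44.6 CPM against 23.3 and 24.1 CPM. In bulk RNA, more cells of a type and more RNA per cell cannot be told apart.

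In the mouse genome (build GRCm38) most of the receptors lie alone, and 4 of them form tandem pairs. Tlr1 (chr5:64924679-64933563) and Tlr6 (chr5:64952031-64960097) lie 18.5 kb apart on the minus strand, and Tlr7 (chrX:167304929-167330558) and Tlr8 (chrX:167242696-167264329) lie 40.6 kb apart on the minus strand, with no annotated gene between the members of either pair. The other 6 are Tlr2 (chr3:83836272-83841767, minus strand), Tlr3 (chr8:45395665-45411080, minus strand), Tlr4 (chr4:66827584-66930284, plus strand), Tlr5 (chr1:182954788-182976044, plus strand), Tlr9 (chr9:106222598-106226883, plus strand) and Tlr13 (chrX:106143204-106160493, plus strand). The transcripts of Tlr1 and Tlr6 share 340 stretches of 75 bases, the read length, which is 10.3% of those of Tlr1 and 9.25% of those of Tlr6. How many reads this touched was not tested. Tlr7 and Tlr8 share none. Exons of the antisense gene Gm45542 overlap those of Tlr3, and it had 0 to 4 counts in each mouse against 257 to 834 for Tlr3.

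RefSeq windows upstream of a transcription start (GRCm38.p6) matched 8 of the 10 receptors, in 10 windows of 200 bases. They were searched on both strands for an ISRE-like motif of interferon responses (GAAANNGAAA), the composite EICE motif (GGAANNGAAA), which overlaps the ISRE-like motif in most of its letters, the PU.1 motif of myeloid and B cells (GAGGAAGT) and the NF-kB consensus. Matches were found upstream of Tlr2, Tlr1 and Tlr6. These stretches are printed 5′ to 3′ without annotated exon bases, with the matches in capitals, beside that of Tlr9, the receptor with the widest strain difference at 6M, and that of Tlr13, the widest at 2M.
Tlr2, NF-kB consensus, chr3:83841768-83841808, minus strand: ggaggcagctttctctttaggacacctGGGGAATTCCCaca
Tlr1, PU.1 motif, chr5:64933564-64933758, minus strand: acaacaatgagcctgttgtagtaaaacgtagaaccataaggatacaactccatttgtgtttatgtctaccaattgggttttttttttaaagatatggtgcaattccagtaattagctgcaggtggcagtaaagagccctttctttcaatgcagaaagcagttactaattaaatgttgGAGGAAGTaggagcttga
Tlr6, overlapping ISRE-like motifs of the opposite strand, chr5:64959167-64959366, minus strand, inside the annotated gene: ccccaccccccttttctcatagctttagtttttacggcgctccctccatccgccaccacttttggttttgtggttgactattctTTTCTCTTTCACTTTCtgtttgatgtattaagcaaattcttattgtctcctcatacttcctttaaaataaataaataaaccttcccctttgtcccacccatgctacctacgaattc
Tlr9, no match, chr9:106222398-106222597, plus strand: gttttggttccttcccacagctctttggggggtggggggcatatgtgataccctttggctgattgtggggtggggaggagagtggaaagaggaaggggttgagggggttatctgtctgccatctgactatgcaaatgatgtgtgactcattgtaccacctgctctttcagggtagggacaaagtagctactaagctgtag
Tlr13, no match, chrX:106143075-106143203, plus strand: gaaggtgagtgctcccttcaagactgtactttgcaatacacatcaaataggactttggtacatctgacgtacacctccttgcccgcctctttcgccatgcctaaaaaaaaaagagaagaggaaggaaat
Of all 32851 RefSeq windows of this length, 6.07% held the NF-kB consensus, 2.06% the PU.1 motif, 2.27% the ISRE-like motif and 1.84% the EICE motif. A match describes the letters only.

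The first question was which receptors differed between the strains at each age. Of the 10 receptors, 8 were higher in NOD.H-2b than in BALB/c LG at 2M, 7 at 4M and 7 at 6M, where a called gene differed at least 2-fold with an adjusted p under 0.05 in edgeR's quasi-likelihood test. Over all genes tested, 12.0%, 15.6% and 18.8% were called higher at the 3 ages. The 7 were Tlr1, Tlr2, Tlr6, Tlr7, Tlr8, Tlr9 and Tlr13, called at all 3 ages, and Tlr3 was the eighth at 2M. With the adjusted p alone, 9, 8 and 9 receptors were higher, against 22.5%, 23.4% and 28.6% of all genes. The ninth at 6M, Tlr4, was lost without BALB/c replicate 2 or 3 or NOD.H-2b replicate 3 of 6M, with edgeR adjusted p values of 0.0876, 0.0812 and 0.111. The median log2 fold change of the 10 receptors was 2.12, 1.96 and 2.20 at 2M, 4M and 6M, and that of all genes was 0.01, 0.00 and 0.00.

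No receptor was called lower in NOD.H-2b at any age. By edgeR 0 receptors were lower with an unadjusted p under 0.05, and by DESeq2 0 were called lower, whereas 3.76%, 4.72% and 6.03% of all genes were called lower by edgeR. Every NOD.H-2b mouse lay above every BALB/c mouse for 9 receptors at 2M, 8 at 4M and all 10 at 6M, which held for 25.3%, 28.4% and 31.3% of all genes tested. The same receptors were called at each age under every alternative setting and without any 1 mouse.

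**Figure D1:**
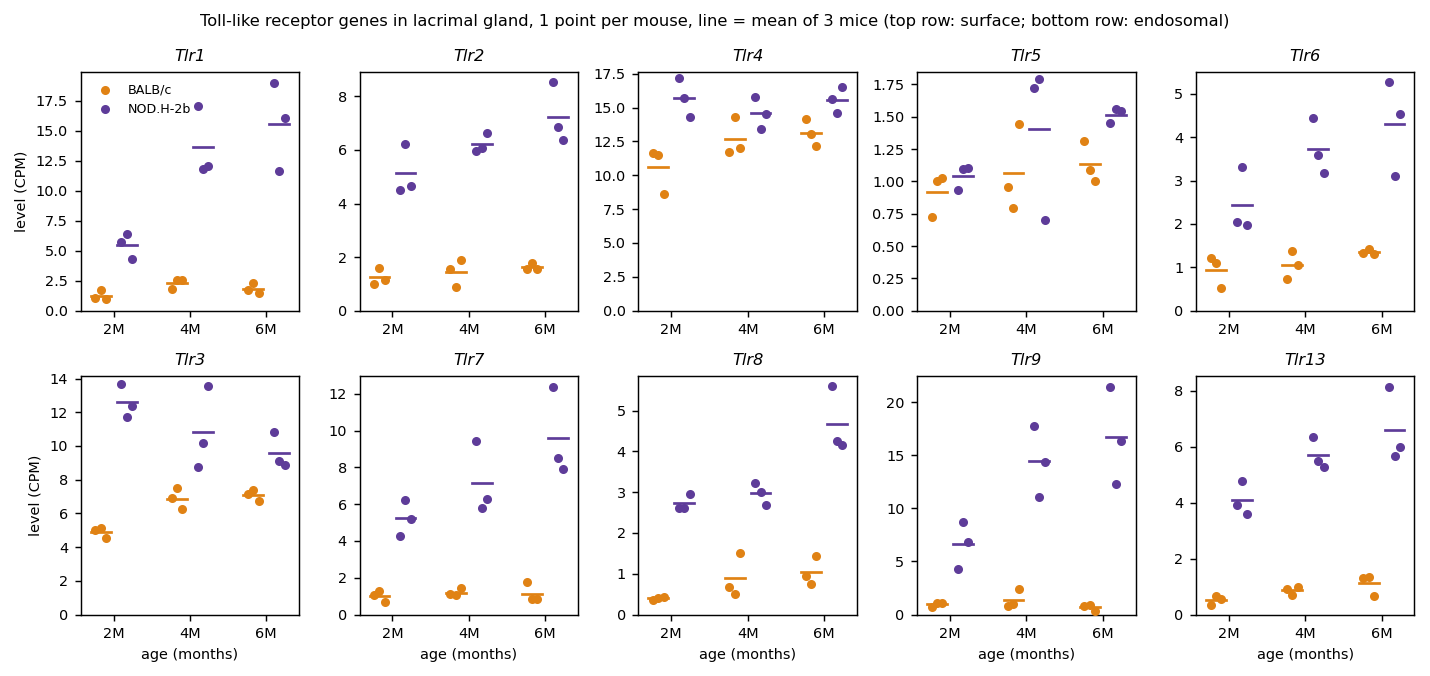
Level of each receptor (CPM, vertical axis from 0) against age, with 1 point per mouse, orange for BALB/c and purple for NOD.H-2b, and a line at the mean of 3 mice; surface receptors are in the top row and endosomal receptors in the bottom row. The purple points of Tlr9 lie at 4.32 CPM or above and the orange points at 2.39 CPM or below, while those of Tlr5 mix at 2M and 4M.

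Tlr1 pairs with Tlr2 to bind lipopeptides with 3 acyl chains. In the 3 BALB/c mice it was at 1.07, 1.74 and 0.97 CPM at 2M, at 1.81, 2.54 and 2.58 CPM at 4M and at 1.74, 2.30 and 1.47 CPM at 6M. In the NOD.H-2b mice it was at 5.75, 6.38 and 4.28 CPM at 2M, at 17.0, 11.8 and 12.1 CPM at 4M and at 19.0, 11.7 and 16.0 CPM at 6M. The strains did not overlap at any age, and the NOD.H-2b mice of 4M and 6M all lay above those of 2M. The log2 fold change of Tlr1 between the strains was 2.16 (SE 0.24), 2.57 (SE 0.20) and 3.12 (SE 0.22) at 2M, 4M and 6M, with adjusted p values of 5.6e-05, 1.39e-05 and 4.02e-06 by edgeR.

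Tlr2, the shared partner of Tlr1 and Tlr6, differed by nearly the same amount at each age. Its level was 0.894 to 1.91 CPM in the 9 BALB/c mice and 4.50 to 8.53 CPM in the 9 NOD.H-2b mice. Between the strains Tlr2 differed by a log2 fold change of 2.09 (SE 0.21) at 2M, 2.09 (SE 0.24) at 4M and 2.19 (SE 0.16) at 6M, and the largest edgeR adjusted p was 0.000122. Tlr6, which pairs with Tlr2 to bind lipopeptides with 2 acyl chains, was lower in level and less separated. It was at 0.529 to 1.43 CPM in BALB/c and at 1.97 to 5.27 CPM in NOD.H-2b LG, with log2 fold changes of 1.42 (SE 0.33), 1.83 (SE 0.25) and 1.71 (SE 0.21) and a largest edgeR adjusted p of 0.00579.

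Tlr4, the receptor for lipopolysaccharide, was among the most abundant receptors and differed by less than 2-fold at every age. The BALB/c mice had 11.6, 11.5 and 8.64 CPM at 2M, 11.7, 14.3 and 12.1 CPM at 4M and 14.1, 13.1 and 12.2 CPM at 6M. The NOD.H-2b mice had 17.2, 15.7 and 14.3 CPM at 2M, 15.8, 13.4 and 14.5 CPM at 4M and 15.6, 14.6 and 16.5 CPM at 6M. The strains overlapped at 4M and were apart at 2M and 6M. The log2 fold change of Tlr4 was 0.61 (SE 0.12) at 2M, 0.21 (SE 0.11) at 4M and 0.28 (SE 0.09) at 6M, with edgeR adjusted p values of 0.00199, 0.162 and 0.0305.

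Tlr5, the receptor for flagellin, had few counts, 35 to 122 in each mouse, and was not called at any age. Its level was 0.726 to 1.45 CPM in BALB/c and 0.701 to 1.79 CPM in NOD.H-2b LG, and the widest spread was at 4M in NOD.H-2b, where replicate 3 had 0.701 CPM and the others 1.73 and 1.79 CPM. Its log2 fold change was 0.23 (SE 0.25), 0.41 (SE 0.38) and 0.44 (SE 0.21), and the edgeR adjusted p values were 0.518, 0.427 and 0.108.

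Tlr9, the endosomal receptor for unmethylated CpG DNA, had the widest strain difference of the 10 at 4M and at 6M. In BALB/c LG it was at 0.745, 1.06 and 1.08 CPM at 2M, at 0.811, 0.975 and 2.39 CPM at 4M and at 0.816, 0.895 and 0.374 CPM at 6M. In NOD.H-2b LG it was at 4.32, 8.66 and 6.82 CPM at 2M, at 17.8, 11.1 and 14.4 CPM at 4M and at 21.4, 12.3 and 16.3 CPM at 6M. The strains did not overlap at any age. The log2 fold change of Tlr9 was 2.82 (SE 0.28) at 2M, 3.35 (SE 0.46) at 4M and 4.57 (SE 0.31) at 6M, or 7.07-fold, 10.2-fold and 23.8-fold, with edgeR adjusted p values of 7.56e-05, 0.0023 and 9.9e-06. Without BALB/c replicate 3 of 4M, the mouse with the high leukocyte marker sums, the fold change at 4M was 16.1.

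Tlr7, a receptor for single-stranded RNA, was higher in NOD.H-2b LG by about as much as Tlr1. Its level was 0.670 to 1.76 CPM in the BALB/c mice and 4.27 to 12.4 CPM in the NOD.H-2b mice, with no overlap. Between the strains the log2 fold change of Tlr7 was 2.41 (SE 0.24), 2.58 (SE 0.23) and 3.05 (SE 0.33) at the 3 ages, and its largest edgeR adjusted p was 0.000103. Tlr8, its neighbour on the X chromosome and also a receptor of the RNA-sensing group, had its smallest strain difference at 4M. The change of this difference with age was not called, with edgeR adjusted p values of 0.219 (2M to 4M) and 0.369 (2M to 6M). A difference in course from Tlr7 was not tested. Tlr8 was at 0.363, 0.395 and 0.441 CPM in BALB/c LG at 2M, at 0.664, 0.508 and 1.51 CPM at 4M and at 0.955, 0.746 and 1.43 CPM at 6M. In NOD.H-2b LG it was at 2.61, 2.62 and 2.96 CPM at 2M, at 3.22, 3.00 and 2.68 CPM at 4M and at 5.59, 4.25 and 4.15 CPM at 6M. The BALB/c mice of 4M and 6M all lay above those of 2M, and BALB/c replicate 3 of 4M was again the highest. For Tlr8 the log2 fold change between the strains was 2.81 (SE 0.22), 1.71 (SE 0.36) and 2.21 (SE 0.24), with a largest edgeR adjusted p of 0.00438. Without that mouse the fold change at 4M was 5.05 in place of 3.28.

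Tlr13, a mouse receptor for bacterial ribosomal RNA, had the widest strain difference of the 10 at 2M. It was at 0.344 to 1.34 CPM in BALB/c and at 3.58 to 8.14 CPM in NOD.H-2b LG, without overlap. Its log2 fold change was 3.01 (SE 0.24), 2.71 (SE 0.19) and 2.57 (SE 0.26), and its largest edgeR adjusted p was 2.62e-05.

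Tlr3, the receptor for double-stranded RNA that signals through TRIF, was called at 2M and stayed under 2-fold at 4M and 6M. The BALB/c mice had 5.03, 5.12 and 4.53 CPM at 2M, 6.93, 7.48 and 6.23 CPM at 4M and 7.15, 7.37 and 6.73 CPM at 6M. The NOD.H-2b mice had 13.7, 11.7 and 12.4 CPM at 2M, 8.78, 10.2 and 13.5 CPM at 4M and 10.8, 9.14 and 8.85 CPM at 6M. The strains stayed apart at every age, with the lowest NOD.H-2b mice near the highest BALB/c mice at 4M and 6M. The log2 fold change of Tlr3 was 1.41 (SE 0.09) at 2M, 0.66 (SE 0.16) at 4M and 0.47 (SE 0.12) at 6M, with edgeR adjusted p values of 6.93e-07, 0.00815 and 0.006.

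**Figure D2:**
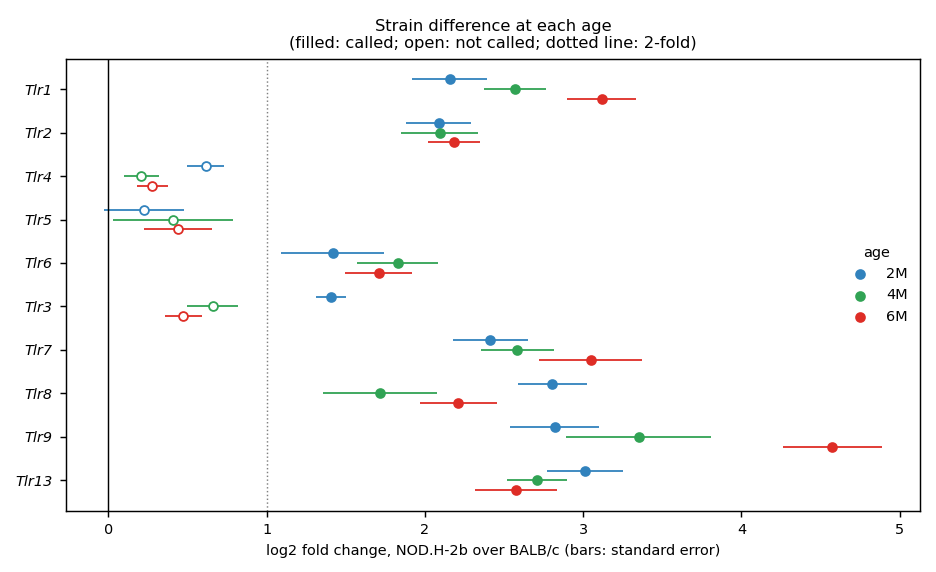
Log2 fold change of each receptor between NOD.H-2b and BALB/c LG (horizontal axis), with bars of 1 standard error, blue for 2M, green for 4M and red for 6M; filled points were called and open points were not, and the dotted line marks 2-fold. Tlr4 and Tlr5 are open at every age, Tlr3 is filled at 2M only, and Tlr9 reaches 4.57 at 6M.

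Levels were compared between receptors as CPM per kilobase (kb) of exon. In BALB/c LG Tlr4 came first and Tlr3 next at every age, and neither overlapped the gene ranked after it. At 6M they were at 2.36 and 1.36 CPM per kb in BALB/c LG, and the others were at 0.200 to 0.549 CPM per kb. At 2M in NOD.H-2b LG the order began with Tlr4 at 2.83, Tlr3 at 2.42 and Tlr9 at 1.90 CPM per kb, and each overlapped the next. From 4M on Tlr9 and Tlr1 led in NOD.H-2b LG, at 4.14 and 4.07 CPM per kb at 4M and at 4.80 and 4.65 CPM per kb at 6M. These 2 overlapped each other, and Tlr1 did not overlap Tlr4, the next in order, at 2.63 and 2.80 CPM per kb. Between Tlr4 and Tlr6 every neighbour overlapped the next at 6M. Tlr5 was the lowest in NOD.H-2b LG at every age, at 0.218, 0.294 and 0.317 CPM per kb, apart from the receptor above it. In BALB/c LG the receptors from the third place down overlapped their neighbours, except Tlr5 and Tlr13 at 2M and Tlr2 and Tlr6 at 6M, and the lowest was Tlr8 at 2M, Tlr13 at 4M and Tlr9 at 6M.

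**Figure D3:**
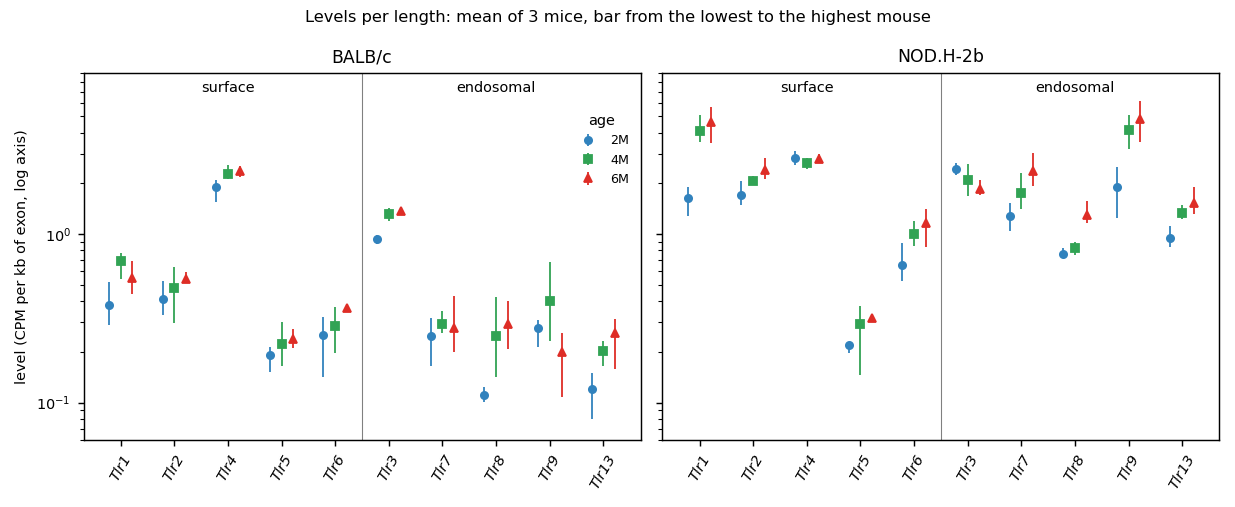
Level per length of each receptor (CPM per kb of exon, log axis) in BALB/c (left) and NOD.H-2b LG (right); points are means of 3 mice and bars run from the lowest to the highest mouse, blue circles for 2M, green squares for 4M and red triangles for 6M. Tlr4 leads in BALB/c LG at every age, and Tlr9 and Tlr1 lead in NOD.H-2b LG at 4M and 6M.

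The next question was how the receptors changed with age within a strain. In NOD.H-2b LG from 2M to 4M, Tlr1 was called higher, with a log2 fold change of 1.32 (SE 0.20, edgeR adjusted p = 0.00915), as were 5.97% of all genes. Tlr9 had a log2 fold change of 1.12 (SE 0.29) and an edgeR adjusted p of 0.0501, and was called by DESeq2. From 2M to 6M, Tlr1 (log2 fold change 1.49, SE 0.21, edgeR adjusted p = 0.00229) and Tlr9 (1.32, SE 0.32, edgeR adjusted p = 0.0258) were called higher, as were 10.9% of all genes. The call of Tlr1 held without any 1 mouse in both comparisons. That of Tlr9 from 2M to 6M was lost without NOD.H-2b replicate 3 of 2M, replicate 1 of 6M or replicate 3 of 6M, with edgeR adjusted p values of 0.0855, 0.0686 and 0.0673.

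With the adjusted p alone, 7 receptors rose in NOD.H-2b LG from 2M to 6M, against 20.7% of all genes, and 1 fell, against 19.4%. Those that rose were Tlr1, Tlr2, Tlr6, Tlr7, Tlr8, Tlr9 and Tlr13, with log2 fold changes of 0.48 to 1.49. The one that fell was Tlr3, whose log2 fold change was -0.41 (SE 0.10, edgeR adjusted p = 0.0144). Tlr1 and Tlr8 stayed under an adjusted p of 0.05 without any 1 mouse. The others did not. Tlr2 was lost without replicate 1 or 3 of 2M or replicate 1 or 2 of 6M (highest edgeR adjusted p 0.129), Tlr6 without replicate 1 or 3 of either age (0.126), Tlr7 and Tlr13 without replicate 3 of 2M (0.0566 and 0.0548), and Tlr3 without replicate 1 of 2M or replicate 3 of 6M (0.0618 and 0.0595). From 4M to 6M 0 receptors were called in NOD.H-2b LG by edgeR or by DESeq2, and 1, Tlr8, had an unadjusted p under 0.05, with a log2 fold change of 0.67. In that comparison 0.00555% of all genes were called higher, and 13.8% had an unadjusted p under 0.05 by edgeR.

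In BALB/c LG Tlr8 was the receptor called with age. It rose from 2M to 6M by a log2 fold change of 1.36 (SE 0.32, edgeR adjusted p = 0.0316), where 1.57% of all genes were called higher. Its call was lost without any of the 3 mice of 2M or without replicate 1 of 6M, with edgeR adjusted p values of 0.0723 to 0.113. Tlr3 had a log2 fold change of 0.53 (SE 0.11, edgeR adjusted p = 0.0152) from 2M to 6M, under 2-fold, and an adjusted p of 0.0534 to 0.0802 without any of the 3 mice of 2M or without replicate 1 or 2 of 6M. From 2M to 4M 0 receptors were called in BALB/c LG by edgeR or DESeq2, while 2.07% of all genes were called higher. By edgeR 4 receptors had an unadjusted p under 0.05, as did 26.5% of all genes. Tlr1 at 0.88 (SE 0.25, edgeR adjusted p = 0.0414) and Tlr3 at 0.49 (SE 0.11, edgeR adjusted p = 0.0143) stayed under 2-fold. Without BALB/c replicate 3 of 2M or replicate 2 of 4M neither had an adjusted p under 0.05, and Tlr1 also not without replicate 1 of 2M or replicate 3 of 4M. From 4M to 6M 0 were called by either tool, where 0.0180% of all genes were called higher. By edgeR 0 had an unadjusted p under 0.05, against 15.5% of all genes.

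Whether the strain difference itself changed with age was tested as an interaction over all 18 mice. From 2M to 6M 1 receptor was called, Tlr3, whose strain difference fell by 0.93 on the log2 scale (SE 0.19, edgeR adjusted p = 0.00453), where 9.09% of all genes were called in that direction and 7.04% in the other. The call held without any 1 of the 18 mice, with edgeR adjusted p values of 0.00117 to 0.0153. The strain difference of Tlr9 was 1.77 (SE 0.60) wider and that of Tlr1 0.97 (SE 0.36) wider at 6M than at 2M, with edgeR adjusted p values of 0.0595 and 0.0767. From 2M to 4M 0 receptors were called by edgeR, where 0.696% of all genes were called wider and 0.978% narrower. In that comparison 3 receptors had an unadjusted p under 0.05 by edgeR (Tlr3, Tlr4 and Tlr8), against 16.5% of all genes, and DESeq2 called 1, Tlr3.

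Cell type markers moved with these differences, and their part in the result was not tested. Of the 10 macrophage markers 9, 8 and 9 were called higher in NOD.H-2b at 2M, 4M and 6M, and their sum was 3.34, 3.13 and 4.14 times that in BALB/c LG. B cell markers were 39.0, 146 and 270 times as high in sum, with 3 of 4 tested called at 2M and 8 of 8 at 4M and 6M. The ratio at 2M was 18.3 without NOD.H-2b replicate 2 and 62.0 without BALB/c replicate 2. T cell markers were 46.1, 32.0 and 51.4 times as high, with 8 of 8 called at each age. Without BALB/c replicate 3 of 4M, which had a T cell sum of 4.88 CPM against 1.27 and 0.731 CPM, the ratio at 4M was 73.2. In the age comparisons within BALB/c LG, 2 or 3 of the 8 B cell markers and 1 to 4 of the 8 T cell markers passed the filter on low counts. Markers of any list that passed it only through their level in NOD.H-2b LG had to differ. Counts of called markers were thus partly fixed by the filter. Dendritic cell markers were 4.47, 4.23 and 7.21 times as high, with 5, 5 and 6 of 7 called, and pan-leukocyte markers 7.03, 11.4 and 20.1 times, with 3 of 3 called. The 7 epithelial markers were 1.26, 0.859 and 0.753 times as high in sum, and 1 of them, Cldn4, was called higher at each age, with a mean at 6M of 2.24 CPM in NOD.H-2b mice against 0.168 CPM in the controls. None of the macrophage, B cell, T cell, dendritic cell, pan-leukocyte or epithelial markers was at 0 in a whole group. Of the other lists, 1 of 3 tested plasmacytoid dendritic cell markers was called higher at 2M and 3 of 4 at 4M and 6M, 1 of 1 tested neutrophil marker at each age, and 1, 4 and 2 of 6 plasma cell markers. Of the 7 acinar and ductal markers 2, 2 and 4 were called lower and 0, 1 and 1 higher. None of the 5 fibroblast or 5 myoepithelial markers was called in either direction, 1 of 4 endothelial markers was called higher at 4M and 6M, and the 1 skeletal muscle marker tested was called lower at each age.

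Dividing each receptor by the macrophage sum of the same mouse split the receptors. Tlr9 was 1.99, 3.49 and 5.84 times as high per macrophage marker in NOD.H-2b as in BALB/c LG, and Tlr7 1.57, 1.87 and 1.96 times, with no overlap between the strains. Tlr13 was 2.32, 2.03 and 1.43 times as high, also without overlap. Tlr1 was 1.32, 1.83 and 2.06 times as high and overlapped at 2M, and Tlr8 was 2.00, 1.12 and 1.04 times as high and overlapped at 4M and 6M. Tlr2 and Tlr6 overlapped between the strains at every age, with ratios of 1.23, 1.36 and 1.06 for Tlr2 and of 0.791, 1.08 and 0.761 for Tlr6. Tlr3, Tlr4 and Tlr5 were lower per macrophage marker in NOD.H-2b LG at every age, without overlap, at 0.325, 0.287 and 0.324 times the BALB/c value at 6M. The macrophage sum was itself 3.34, 3.13 and 4.14 times as high there at the 3 ages. A gene with no strain difference would thus also be lower per macrophage marker. Divided by the pan-leukocyte sum instead, Tlr9 overlapped between the strains at every age, with ratios of 0.984, 0.985 and 1.21. Divided by the B cell sum, Tlr9 was 0.294, 0.0806 and 0.0902 times as high in NOD.H-2b as in BALB/c LG, with overlap at 2M only. Every receptor had a lower mean in NOD.H-2b LG on this scale, at 6M from 0.00437 times for Tlr4 to 0.0902 times for Tlr9. The B cell sums of the BALB/c mice were near the floor, at 0.123 to 2.36 CPM, so these ratios rest on small values. On the pan-leukocyte scale all receptors except Tlr9 were lower than in BALB/c LG at 4M and 6M, without overlap. That sum was itself 11.4 and 20.1 times as high in NOD.H-2b LG at these ages. A gene with no strain difference would thus also be lower on this scale, as on the B cell scale. How many of all genes were lower without overlap was not tested.

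**Figure D4:**
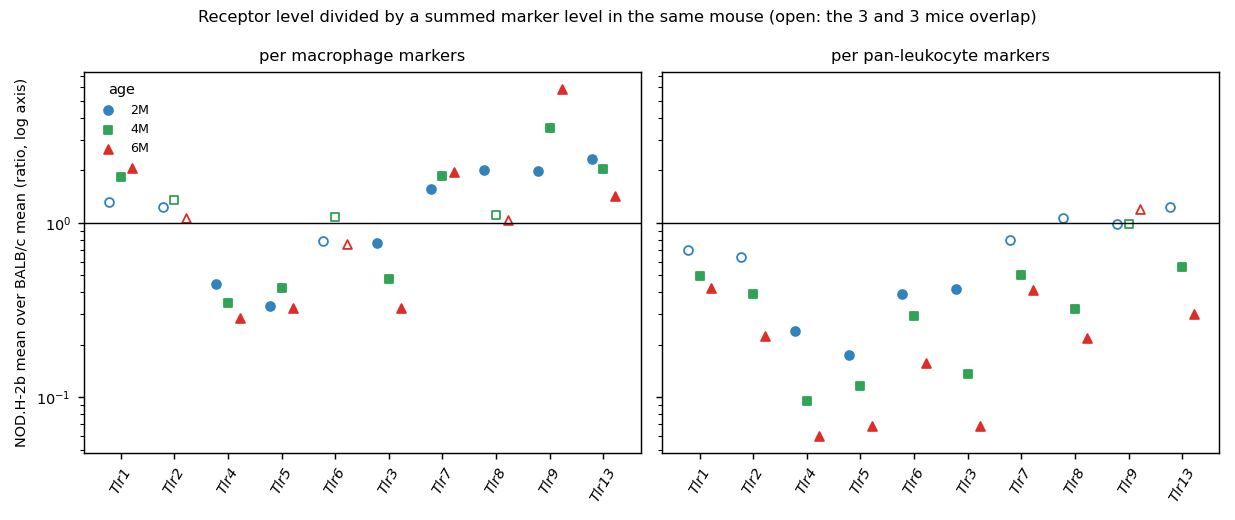
Ratio of the NOD.H-2b mean to the BALB/c mean (log axis) of each receptor after division by the summed macrophage markers (left) or pan-leukocyte markers (right) of the same mouse, blue circles for 2M, green squares for 4M and red triangles for 6M; open points mark groups that overlap. Tlr9 lies at 5.84 per macrophage marker and at 1.21 per pan-leukocyte marker at 6M.

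Across the 9 NOD.H-2b mice, which share the course of age and infiltration, Tlr9 followed the pan-leukocyte sum with a Pearson r of 0.982 (log2 CPM), and the T cell, dendritic cell, B cell and macrophage sums with 0.970, 0.967, 0.965 and 0.948. Replicate 1 of 2M, with the lowest Tlr9, was also the lowest of the 9 mice in each of these sums. Over the 9 BALB/c mice the r of Tlr9 to the same sums, in the same order, was 0.583, 0.239, 0.534, 0.197 and 0.490. Over the NOD.H-2b mice Tlr9 also had an r of 0.91 to the endothelial, -0.903 to the epithelial and -0.876 to the fibroblast sum. The r to the pan-leukocyte sum there was 0.940 for Tlr1, 0.926 for Tlr13, 0.917 for Tlr6 and 0.895 for Tlr7. It was 0.836 for Tlr2 and 0.709 for Tlr8. Tlr3 ran the other way over the NOD.H-2b mice, with an r of -0.732 to the pan-leukocyte sum and 0.808 to the epithelial sum. Its r to the acinar and ductal sum was 0.172 there. Over the BALB/c mice the r of Tlr3 was 0.561 to the pan-leukocyte sum, 0.713 to the epithelial sum and 0.771 to the acinar and ductal sum. The r of Tlr4 to the macrophage, B cell, pan-leukocyte and epithelial sums lay between -0.314 and -0.115 over the NOD.H-2b mice. To all marker lists it lay there between -0.505 (neutrophil sum) and 0.23 (fibroblast sum). Over the BALB/c mice it lay between -0.712 (endothelial sum) and 0.797 (B cell sum). Among the receptors, over the NOD.H-2b mice, Tlr6 and Tlr13 were closest, at 0.951, and Tlr3 and Tlr5 farthest, at -0.890. Over the BALB/c mice the r of these pairs was 0.253 and 0.204.

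Of the 13578 genes whose mean log2 CPM was 0 or more, the 3 most like Tlr9 over the NOD.H-2b mice were Samhd1, Slc8a1 and Rassf4, with an r of 0.992 to 0.993. Those most like Tlr1 were Slc2a1, Akap11 and Egr3 (0.990 to 0.995), and those most like Tlr13 were Rgs2, Inpp5f and Gm37212 (0.984 to 0.991). Tlr7 was most like P2ry14, Sod3 and Bgn (0.981 to 0.982), Tlr6 like Plekhm3, Myo7a and Apaf1 (0.967 to 0.975) and Tlr8 like Pgm2l1, Rsrc1 and Gm16973 (0.952 to 0.969). Tlr2 was most like Fcer1g, the common gamma chain of Fc receptors, and then Skil and Gm44153 (0.959 to 0.964). Tlr3 was most like Csnk1d, Eps8l1 and Vars (0.951 to 0.960), Tlr5 like Ift57, Gm43421 and Gm15711 (0.948 to 0.982), and Tlr4 like 9530085L11Rik, Fancf and Smarcad1 (0.850 to 0.879). These are the highest of many values over few mice, and over the 9 BALB/c mice the r of the same pairs was lower in every case, from -0.717 to 0.673.

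The other genes of the pathway were counted by role, from lists of 95 genes. Of 84, 86 and 87 genes tested, 40, 39 and 44 were called higher in NOD.H-2b LG at 2M, 4M and 6M, which is 47.6%, 45.3% and 50.6%, and 0, 1 and 1 lower. Over all genes tested, 12.0%, 15.6% and 18.8% were called higher and 3.76%, 4.72% and 6.03% lower. The pathway total holds the target cytokines and chemokines, of which 14 of 15, 14 of 16 and 15 of 17 tested were called higher. Some of those passed the filter only through their level in NOD.H-2b LG and had to differ. Part of the total was thus fixed by the filter. The median log2 fold change of the same pathway genes was 0.74, 0.91 and 1.04. The one called lower at 4M and 6M was Ctsk, a cathepsin, named after its values were seen, with log2 fold changes of -1.61 and -1.16.

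The 2 further mouse receptors on the list were split. Tlr12, a receptor for profilin of protozoa, had 1 to 26 counts in each BALB/c mouse and 24 to 290 in each NOD.H-2b mouse, and was called higher at all 3 ages. Tlr11, its partner, was not called, with log2 fold changes of 0.62, 0.45 and 0.65.

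Among 6 co-receptors and ligand delivery genes tested, 4, 3 and 4 were called higher. Cd14, which passes lipopolysaccharide to Tlr4, had log2 fold changes of 1.41 to 1.99. Cd180 and Ly86, a receptor complex of B cells and myeloid cells related to Tlr4, had 3.70, 3.41 and 4.08 and 2.47, 3.09 and 4.08. Rnase2a, a ribonuclease, had 0 to 3 counts in each mouse and was not tested.

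Among 12 chaperones, trafficking and processing genes, 5, 4 and 7 were called higher. Unc93b1, the chaperone that carries the nucleic acid receptors to endosomes, had log2 fold changes of 1.24 (SE 0.14), 1.59 (SE 0.16) and 2.07 (SE 0.15). The endosomal proteases Lgmn and Ctss, which can cut the receptors into their active form, had 1.94, 1.66 and 1.88 and 2.63, 2.47 and 3.29.

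Of the adaptors, 2 of 5 tested were called higher at 2M, 2 of 6 at 4M and 3 of 6 at 6M. Ticam2, the bridging adaptor of Tlr4, had log2 fold changes of 1.98, 1.95 and 2.68 at a level of at most 138 counts, and Pik3ap1, an adaptor to phosphoinositide signalling in B cells and macrophages, 2.20, 1.93 and 1.95. Of the 17 kinases and ubiquitin ligases only Btk, a kinase of B cells and myeloid cells, was called higher at any age, with log2 fold changes of 2.58, 3.63 and 4.15. The median of the kinase list was 0.04, 0.16 and -0.06.

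Of the 12 transcription factors 7, 7 and 6 were called higher. Irf7 and Irf5, which act downstream of the endosomal receptors, had log2 fold changes of 3.07, 2.41 and 2.41 and of 2.14, 2.66 and 3.30, and the NF-kB subunit Relb had 2.15, 1.61 and 1.88. Of the 15 inhibitors 6, 7 and 7 were called higher. Socs1, a suppressor of cytokine signalling, had log2 fold changes of 2.66, 2.73 and 3.79. Tnip3, a partner of the NF-kB inhibitor A20, and Trem2, a receptor of macrophages, were called at all 3 ages at no more than 59 and 126 counts in a mouse.

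Of the 23 target cytokines and chemokines, 15, 16 and 17 passed the filter on low counts at 2M, 4M and 6M, and 14, 14 and 15 were called higher. Genes that passed the filter only through their level in NOD.H-2b LG had to differ, so these counts are not compared with those of the other lists. Several of them were near 0 in BALB/c LG, so levels are given in place of folds. Cxcl9, a chemokine for activated T cells, was at 0.232 ± 0.0736 CPM (SD, n = 3) in BALB/c LG and at 18.9 ± 6.56 CPM (SD, n = 3) in NOD.H-2b LG at 6M. Its relative Cxcl10 was at 0.119 ± 0.0644 and 8.06 ± 2.1 CPM (SD, n = 3), and the costimulatory receptor Cd40 at 0.0499 ± 0.0444 and 9.74 ± 3.19 CPM (SD, n = 3). Ifnb1, the gene of interferon beta, had at most 1 count in each mouse and was not tested. Many of these genes are also leukocyte genes, and the part of the marker differences given above was not tested for them.

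**Figure D5:**
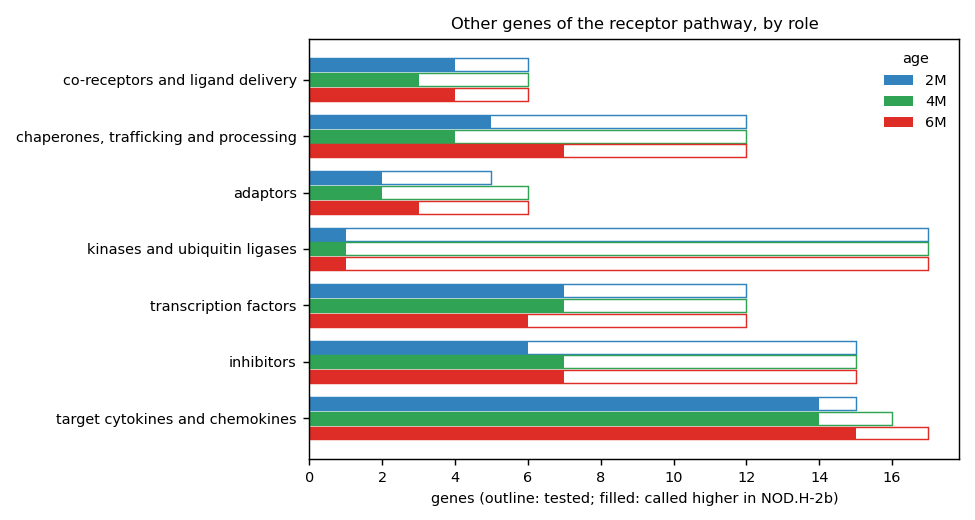
Number of genes (horizontal axis) in each list of the receptor pathway that were tested (outline) and called higher in NOD.H-2b LG (filled), in blue for 2M, green for 4M and red for 6M. All 17 kinases and ubiquitin ligases were tested and 1 was called at each age, while 15 to 17 of the 23 target cytokines and chemokines passed the filter on low counts, some only through their level in NOD.H-2b LG.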

How the data were processed

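RNA of 18 mouse LGs had been depleted of ribosomal RNA and sequenced as paired reads of 75 bases. The submitters' processing notes name cutadapt, FastQC, STAR, HTSeq and DESeq2 and the build GRCm38. The deposited count table (whole counts, 49480781 to 103936830 per mouse) was used for every test. The deposited log2 table, which was not used for tests, holds log2 of the counts divided by DESeq2 size factors, plus 1, as checked against the counts. Strandedness of the counting is not given in the sources used here. Reads of both strains were aligned to 1 reference, and an effect of this was not tested.

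Here, counts were tested with edgeR 4.0.16 (R 4.3.3; filterByExpr, TMM, robust quasi-likelihood fit, Benjamini-Hochberg over all genes tested), each 2-group comparison on its own 6 mice and the strain by age interaction on all 18. Called means an adjusted p under 0.05 and, except for the interaction, a fold change of at least 2. The fit was tested on simulated data. Alternatives were DESeq2 1.42.0, other scaling and filters, 1 fit of all mice, a replicate block and leaving out each mouse. Loci and lengths came from GENCODE M21 and promoter windows from RefSeq.

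The receptors, lists and tests were chosen with earlier results of these data known. Named pathway genes were, from each list, the up to 3 with the largest mean change among those called one way at all 3 ages, plus those with at most 3 counts in every mouse. Of 189 list genes 188 were matched.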

Additional observations from a re-analysis of the deposited data

Results flagged for a closer look

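Tlr3 was the receptor for which the test of the strain by age interaction passed. Its difference between NOD.H-2b and BALB/c LG was smaller at 6M than at 2M, by a log2 value of -0.93 (SE 0.19, edgeR adjusted p = 0.00453). Of all genes, 9.09% were called in that direction and 7.04% in the other, so 1 receptor of 10 is near the share over all genes. At 2M the BALB/c mice had 4.53 to 5.12 CPM and the NOD.H-2b mice 11.7 to 13.7 CPM, and at 6M they had 6.73 to 7.37 and 8.85 to 10.8 CPM. The mean level rose in BALB/c LG from 4.89 to 7.08 CPM and fell in NOD.H-2b LG from 12.6 to 9.61 CPM, with edgeR adjusted p values of 0.0152 and 0.0144. Leaving out 1 mouse took these as high as 0.0802 (without BALB/c replicate 3 of 2M) and 0.0618 (without NOD.H-2b replicate 1 of 2M).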

How the results depend on the processing

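All 360 recomputed log2 fold changes of the 10 receptors between strains, over 24 settings including each mouse left out, kept their direction and their call, which needs 2-fold and an adjusted p under 0.05. With the adjusted p alone, Tlr4 at 6M was lost in 1 fit of all 18 mice (edgeR adjusted p = 0.0709) and with the replicate block (0.0537). The counts of receptors called higher (8, 7 and 7) and lower (0) at 2M, 4M and 6M did not change. The age counts rest on few genes and moved, mostly through Tlr9, Tlr8 and Tlr13. With no filter on low counts, 1 receptor was called in BALB/c LG from 2M to 4M, 1 from 4M to 6M and 2 from 2M to 6M, 1 in NOD.H-2b LG from 2M to 6M, and 1 for strain by age from 2M to 4M. With at least 10 counts in every sample 2 were called in NOD.H-2b LG from 2M to 4M and 2 for strain by age from 2M to 6M. With the DESeq2 Wald test these were 2 and 3, with 1 for strain by age from 2M to 4M. In 1 fit of all 18 mice 1 was called in BALB/c LG from 2M to 4M, 2 from 2M to 6M, and 2 in NOD.H-2b LG from 2M to 4M, and with only the 12 mice of 2M and 6M 2 for strain by age. The cause was not tested. Leaving out 1 mouse at a time gave 0 to 1, 0 to 0 and 0 to 2 receptors in BALB/c LG from 2M to 4M, 4M to 6M and 2M to 6M, 1 to 2, 0 to 0 and 1 to 4 in NOD.H-2b LG, 1 to 3 for strain by age from 2M to 6M and 0 to 1 from 2M to 4M. In BALB/c LG from 2M to 4M Tlr1 was gained without BALB/c 2M replicate 2 or 4M replicate 1, and Tlr8 without 4M replicate 2. From 2M to 6M Tlr13 was gained without BALB/c 6M replicate 3. In NOD.H-2b LG Tlr9 from 2M to 4M and Tlr6 and Tlr7 from 2M to 6M were gained without NOD.H-2b 2M replicate 2. For strain by age from 2M to 6M Tlr9 was gained without NOD.H-2b 2M replicate 2, BALB/c 4M replicate 3 or NOD.H-2b 6M replicate 2, the last also with Tlr1, and from 2M to 4M Tlr3 without any of 5 mice.

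Replicate numbers did not pair the mice, since 3 of 45 same-numbered pairs of deviations had a correlation over 0.1 and no group pair had all 3. With the replicate block the strain counts were 8, 7 and 7, and 1 receptor in place of 2 was called in NOD.H-2b LG from 2M to 6M, as Tlr9 had an edgeR adjusted p of 0.098. No other call at 2-fold changed with the block.

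With 3 mice per group, differences under 2-fold of genes such as Tlr5, at 35 to 122 counts, had wide errors. Leaving out mice for marker ratios and for the adjusted p alone was chosen after seeing the data.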
